A study of Mus musculus with 7 samples.

Results

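The kainate receptor genes Grik1, Grik2, Grik3, Grik4 and Grik5 and the delta receptor gene Grid1 were taken by symbol from a count table of 55367 genes, and all 6 were found. They were followed in bulk RNA-seq libraries from C57BL/6J mouse brain at P90, 4 labelled CRS and 3 labelled noCRS. The labels give the material as total RNA of mPFC-LHB projection neurons, that is, prefrontal neurons with axons to the habenula. The series title speaks of chronic stress and depression, and the design text names the single contrast of CRS with noCRS mice. The labels give no further treatment, allele, sex or marking method for either group, nor do they tie the libraries to separate animals. P-values therefore measure only the spread between these libraries, which may be technical.

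Kainate receptors are glutamate-gated cation channels built from 4 subunits. The subunits encoded by Grik1, Grik2 and Grik3 (GluK1 to GluK3) can form channels alone, while those of Grik4 and Grik5 (GluK4 and GluK5) bind agonist with high affinity and work only together with a member of the first group. They sit on both sides of the synapse, tune transmitter release and carry slow synaptic currents. The delta receptor encoded by Grid1 (GluD1) is related by sequence but acts mainly as a synaptic organiser, joined through secreted cerebellins to the presynaptic side. Cortical neurons use these genes, and oligodendrocyte precursors also carry kainate receptors.

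The 6 genes are paralogs, so their likeness bears on how reads were divided among them. In the coding sequence of the longest GENCODE M21 coding transcript of each gene, Grik1, Grik2 and Grik3 were 71.2% to 72.2% identical to each other, and Grik4 and Grik5 were 71.3% identical. Across those groups identity was 55.8% to 61.2%, and Grid1 was 53.7% to 56.3% identical to the 5 kainate genes. The longest run shared without a mismatch was 38 bases, between Grik3 and Grik5, and Grik1 shared 35 bases with Grik2. With the read length not given in the sources used here, counts that a short read could have split between these paralogs cannot be told from the table. The 60-base window in which Grik1 was most like the other 5 genes together lies in the part that codes for the third membrane segment, which forms the channel gate. It is shown because it is where the other genes come closest to Grik1, with each base that differs from Grik1 in capitals.
Grik1: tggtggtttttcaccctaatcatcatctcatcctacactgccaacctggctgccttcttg
Grik2: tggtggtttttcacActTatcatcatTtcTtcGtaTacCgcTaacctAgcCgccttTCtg
Grik3: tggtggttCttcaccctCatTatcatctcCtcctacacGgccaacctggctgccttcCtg
Grik4: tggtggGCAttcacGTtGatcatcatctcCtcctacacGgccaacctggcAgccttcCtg
Grik5: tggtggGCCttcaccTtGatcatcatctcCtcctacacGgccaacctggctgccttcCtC
Grid1: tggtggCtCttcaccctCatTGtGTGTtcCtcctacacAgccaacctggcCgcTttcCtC
These windows lie on GRCm38 at chr16:87936006-87936065 (minus strand) for Grik1, chr10:49240687-49240746 (minus) for Grik2 and chr4:125694012-125694071 (plus) for Grik3. The Grid1 window is at chr14:35452311-35452370 (plus). Those of Grik4, chr9:42543866-42547568 (minus), and Grik5, chr7:25015916-25022442 (minus), cross a splice junction, and only their exon bases are shown. Of the 60 bases, Grik3 had 54 in common with Grik1, Grik5 51, Grik4 50, Grik2 48 and Grid1 45. No paralog matched Grik1 over the whole of this window. The run of 35 bases that Grik1 shared with Grik2 does not lie within it.

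The libraries held 28677703 to 39965667 counts. CRS replicate 2 stood apart on the first principal component of log2 counts per 1e6 (CPM), which held 30.4% of the variance, and had the fewest detected genes, 16938. Most listed excitatory neuron markers were low in the noCRS libraries, although their label names projection neurons. Slc17a7, which loads glutamate into vesicles of excitatory cortical cells, had 13.5, 6.77, 10.6 and 9.38 CPM in CRS. In noCRS it had 0.603, 0 and 0 CPM. Of 10 such markers, 9 were higher in CRS without overlap, against 16.9% of all tested genes apart in either direction. Camk2a overlapped, with 15.5 ± 6.86 CPM in CRS (SD, n = 4) and 7.20 ± 5.62 CPM in noCRS (SD, n = 3). The summed CPM of 10 excitatory neuron markers was 557 to 793 in CRS and 22.6 to 42.1 in noCRS, and that of 12 oligodendrocyte precursor markers was 1582 to 2076 in CRS and 2977 to 3388 in noCRS. Mature oligodendrocyte markers were abundant in both groups, with a summed CPM of 28253 to 55783 in CRS and 33944 to 39570 in noCRS. In bulk libraries, fewer cells of a type and less RNA per cell cannot be told apart.

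No kainate or delta receptor gene passed the test, and the 6 did not all differ in 1 direction, with 4 negative and 2 positive fold changes. The levels of the 6 genes per kilobase of exon, in CPM normalised by TMM (a scaling for library composition), summed to 8.26 ± 1.83 in CRS (SD, n = 4) and 16.9 ± 3.26 in noCRS (SD, n = 3), without overlap and with no test of the sum. Grik1 alone contributed 2.53 to that sum in CRS and 7.05 in noCRS. Grik1, Grik4 and Grid1 had the largest negative differences, Grik5 a smaller one, and Grik2 and Grik3 were close to 0. All 6 passed the filter on low counts. In the edgeR quasi-likelihood fit, with p-values adjusted by Benjamini-Hochberg over 17833 genes, 0 of 6 were past an adjusted p of 0.05, against 2.3% of all tested genes. In the direction of lower in CRS the count was also 0 of 6, against 0.23% of all tested genes. Unadjusted, 1 of 6 had a p below 0.05, against 13.6% of all genes. DESeq2 called 1, Grik1, where it called 9.14% of the genes it tested (2.3% as lower), and limma-voom called 0, where it called 3.58%. The groups did not overlap, with CRS lower, in 2 of 6 genes, against 6.74% of all tested genes. The median log2 fold change of the 6 was -1.16, against -0.016 over all tested genes.

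**Figure D1:**
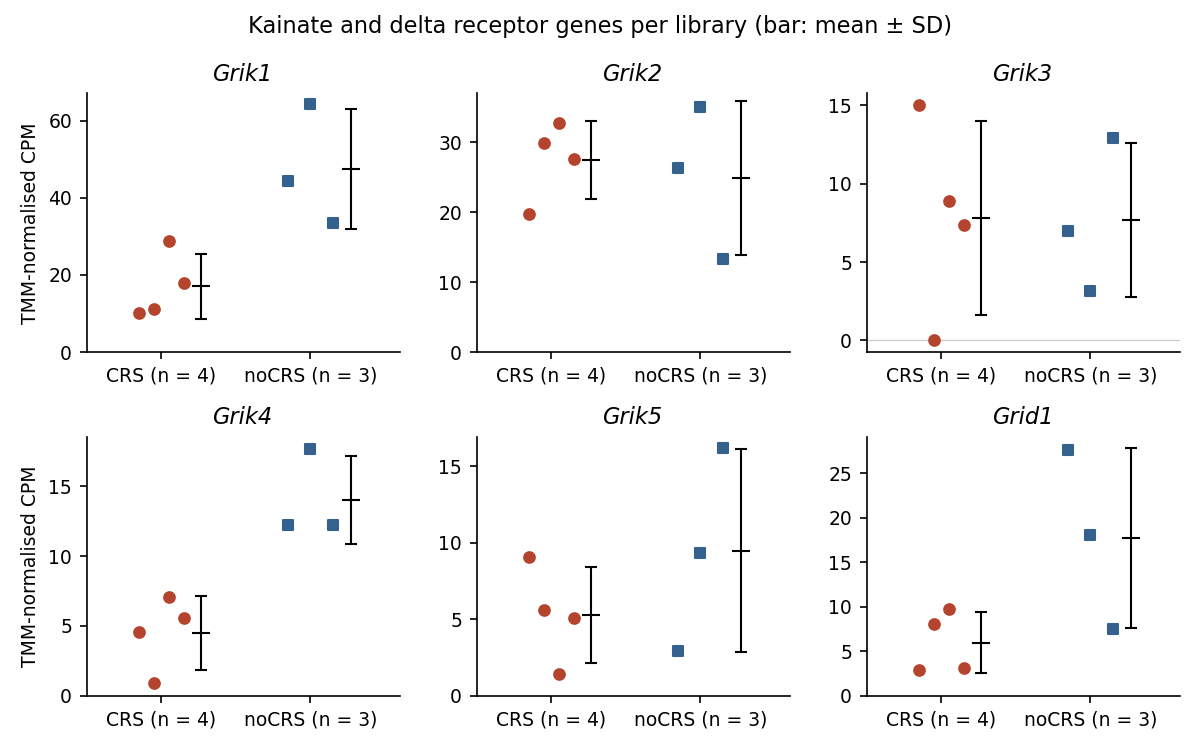
TMM-normalised CPM of each gene in each library, CRS as circles and noCRS as squares, with the mean and SD of each group as bars. All 4 CRS libraries lie below all 3 noCRS libraries for Grik1 and Grik4, while the groups overlap for Grik2, Grik3, Grik5 and Grid1.

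Grik1 encodes GluK1, a subunit able to form channels by itself. It lies on chromosome 16 from 87895900 to 88290265 (GRCm38, minus strand), with 6721 bases of exon that no other gene in the table overlaps. It had 10.2, 11.3, 28.72 and 17.8 CPM in CRS replicates 1 to 4, against 44.4, 64.2 and 33.5 CPM in noCRS replicates 1 to 3. The groups were apart, though CRS replicate 3 came close to noCRS replicate 3. The mean was 17.0 ± 8.49 CPM in CRS (SD, n = 4) and 47.4 ± 15.6 CPM in noCRS (SD, n = 3), a log2 fold change of -1.48 ± 0.44 (SE). The 95% interval of that fold change ran from -2.48 to -0.48. The edgeR adjusted p was 0.158 (unadjusted p = 0.00903 in the same edgeR fit), and that of DESeq2 was 0.0122. Without any single library the fold change stayed between -1.87 and -1.19 (edgeR adjusted p from 0.0937 to 0.43).

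Grik2 encodes GluK2, the other main channel-forming kainate subunit of the forebrain, and lies on chromosome 10 from 49094833 to 49788766 (minus strand). It had 19.7, 29.9, 32.7 and 27.6 CPM in CRS, against 26.3, 35.0 and 13.2 CPM in noCRS. Both the highest and the lowest value were in noCRS, so the CRS libraries lay within the noCRS range. The log2 fold change was 0.14 ± 0.40 (SE), with an interval from -0.76 to 1.05 and an edgeR adjusted p of 0.939. Its sign turned to -0.021 when libraries were scaled by totals alone and to -0.16 without noCRS replicate 3. The interval leaves out a drop as large as the Grik1 estimate.

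Grik3 encodes GluK3, a channel-forming subunit of low glutamate sensitivity, and lies on chromosome 4 from 125490700 to 125714173 (plus strand). It had 15.01, 0, 8.88 and 7.37 CPM in CRS, against 6.97, 3.18 and 12.9 CPM in noCRS. CRS replicate 2, with 0 counts of Grik3 where a floor of 3 counts is 0.0936 CPM, and CRS replicate 1 spanned the noCRS range. The log2 fold change of 0.02 ± 1.45 (SE; edgeR adjusted p = 0.998) had an interval from -3.28 to 3.33, and its sign turned under 3 other scalings (-0.11 to -0.019). It was 0.42 without CRS replicate 2, 0.62 without noCRS replicate 3 and -0.51 without CRS replicate 1.

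Grik4, which encodes the high-affinity subunit GluK4, lies on chromosome 9 from 42518135 to 42944493 (minus strand) and shares 0.99% of its exon bases with the gene model Gm24420. It had 4.56, 0.874, 7.10 and 5.55 CPM in CRS, against 12.2, 17.7 and 12.2 CPM in noCRS. Every CRS library was below every noCRS library, and CRS replicate 2 was the lowest. The means were 4.52 ± 2.65 CPM in CRS (SD, n = 4) and 14.0 ± 3.17 CPM in noCRS (SD, n = 3). The log2 fold change was -1.63 ± 0.74 (SE), with an interval from -3.33 to 0.07 and an edgeR adjusted p of 0.392. It was -1.31 without CRS replicate 2 (edgeR adjusted p = 0.316).

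Grik5 encodes GluK5, the more widely expressed high-affinity subunit, and lies on chromosome 7 from 25009849 to 25072346 (minus strand). It had 9.06, 5.58, 1.42 and 5.06 CPM in CRS, against 2.89, 9.34 and 16.2 CPM in noCRS. The groups overlapped, with means of 5.28 ± 3.13 CPM in CRS (SD, n = 4) and 9.47 ± 6.64 CPM in noCRS (SD, n = 3). The log2 fold change was -0.84 ± 0.85 (SE), with an interval from -2.78 to 1.10 and an edgeR adjusted p of 0.813. It was -0.21 without noCRS replicate 3, whose removal lowered the noCRS mean to 6.12 CPM, against 9.47 CPM over all 3. It was -0.55 without CRS replicate 3 and -1.26 without noCRS replicate 1.

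Grid1, the delta receptor gene, lies on chromosome 14 from 34820108 to 35583379 (plus strand) and shares 1.53% of its exon bases with the gene model Gm27617. It had 2.90, 8.05, 9.71 and 3.15 CPM in CRS, against 27.7, 18.0 and 7.46 CPM in noCRS. The groups overlapped through noCRS replicate 3, which lay below CRS replicates 2 and 3. The means were 5.95 ± 3.45 CPM in CRS (SD, n = 4) and 17.7 ± 10.1 CPM in noCRS (SD, n = 3). The log2 fold change was -1.57 ± 0.69 (SE), with an interval from -3.15 to 0.0024 and an edgeR adjusted p of 0.369. It was -1.08 without noCRS replicate 1.

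The order of the genes by level per kilobase differed between the groups. In CRS the order of the mean levels, in CPM per kilobase, was Grik1 (2.53 ± 1.26), Grik2 (2.07 ± 0.42), Grik5 (1.02 ± 0.60), Grid1 (0.998 ± 0.578), Grik3 (0.871 ± 0.687) and Grik4 (0.758 ± 0.444). In noCRS it was Grik1 (7.05 ± 2.31), Grid1 (2.97 ± 1.70), Grik4 (2.35 ± 0.53), Grik2 (1.88 ± 0.83), Grik5 (1.83 ± 1.28) and Grik3 (0.857 ± 0.547). Errors are SDs over 4 CRS and 3 noCRS libraries. Grik1 was first in 2 of 4 CRS libraries, with Grik5 first in CRS replicate 1 and Grik2 in CRS replicate 2, and it was first in all 3 noCRS libraries. In CRS the step from Grik2 to Grik5, and in noCRS the step from Grik1 to Grid1, exceeded the SD of both genes of the pair. The other neighbours in each order lay within the SD of at least 1 of the pair. These orders depend on gene length. With length ignored, Grik2 made up more of the Grik1 to Grik5 counts than Grik1 in every CRS library (means 45.4% and 26.4%).

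The make-up of the kainate transcripts was compared as the share of each gene in the sum of Grik1 to Grik5 per kilobase, a measure within a library that does not depend on how libraries are scaled. Grik2 took 20.7%, 43.7%, 26.9% and 27.9% of the sum in CRS, against 16.6%, 15.3% and 7.93% in noCRS. The shares of Grik2 did not overlap and were higher in CRS. The level of Grik2 itself overlapped (2.07 ± 0.42 CPM per kilobase in CRS and 1.88 ± 0.83 in noCRS). Its share was higher in CRS, the group in which Grik1 and Grik4 had lower levels. Within the groups this did not hold throughout. CRS replicate 1 and noCRS replicate 3 had the lowest Grik1 level of their group and also its lowest Grik2 share. CRS replicate 2, with the lowest Grik4 level, had the highest Grik2 share. Grik4 took 10.6%, 2.84%, 12.9% and 12.5% in CRS, against 17.1%, 17.1% and 16.2% in noCRS, and was lower in CRS with no overlap. Grik1 took 33.9 ± 10.4% in CRS (SD, n = 4) and 49.96 ± 8.97% in noCRS (SD, n = 3), and here the groups overlapped. With gene length ignored the Grik1 shares did not overlap, at 17.5% to 36.4% in CRS and 38.1% to 49.6% in noCRS. Grik3 took 11.2 ± 9.49% in CRS and 6.65 ± 4.69% in noCRS, and Grik5 15.3 ± 9.48% in CRS and 13.3 ± 10.4% in noCRS, both with overlap. The high-affinity subunits Grik4 and Grik5 together took 25.1 ± 7.82% in CRS and 30.1 ± 9.89% in noCRS, also with overlap. No p-value is given for these shares, since they combine the 5 kainate genes, which were chosen with earlier results known.

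**Figure D2:**
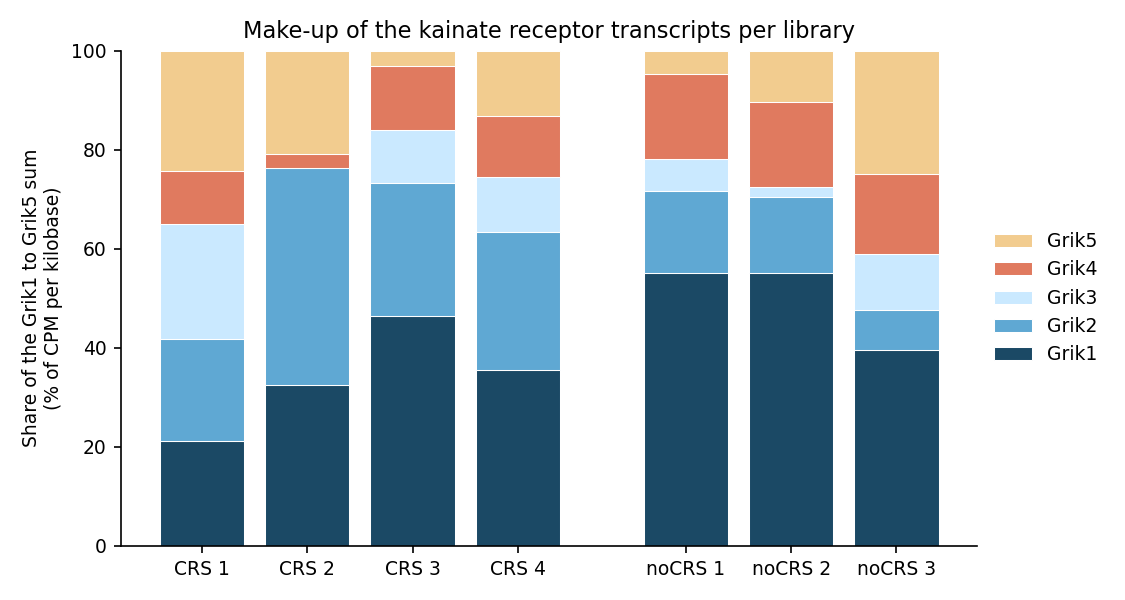
Share of each kainate receptor gene in the Grik1 to Grik5 sum per kilobase, in percent, for each of the 4 CRS and 3 noCRS libraries. The Grik2 share is 20.7% to 43.7% in CRS and 7.93% to 16.6% in noCRS.

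Set against Grik2 in the same library, Grik1, Grik4 and Grid1 were lower in every CRS library than in any noCRS library. Grik2, whose own log2 fold change was 0.14, was taken as the denominator with earlier results known. The ratios restate the levels given above and are no separate evidence. The Grik1 to Grik2 ratio of levels per kilobase was 1.02, 0.744, 1.73 and 1.27 in CRS, against 3.33, 3.61 and 4.99 in noCRS. The Grik4 to Grik2 ratio was 0.514, 0.0649, 0.482 and 0.447 in CRS, against 1.03, 1.12 and 2.05 in noCRS. Grik4 was below Grik2 per kilobase in every CRS library and above it in every noCRS library. The Grid1 to Grik2 ratio was 0.327, 0.598, 0.659 and 0.254 in CRS, against 2.34, 1.14 and 1.25 in noCRS, with no overlap although Grid1 itself overlapped. The ratios of Grik3 and Grik5 to Grik2 overlapped between the groups, and like the shares these ratios carry no p-value.

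**Figure D3:**
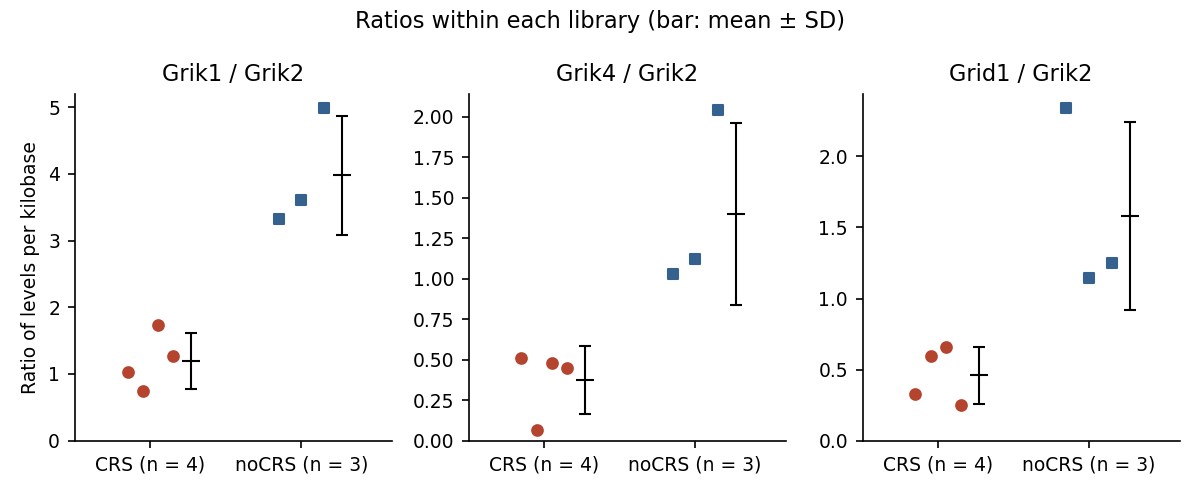
Ratios of levels per kilobase within each library, for Grik1, Grik4 and Grid1 over Grik2, CRS as circles and noCRS as squares, with mean and SD as bars. All CRS ratios lie below all noCRS ratios in each panel, for example at most 1.73 in CRS and at least 3.33 in noCRS for Grik1 over Grik2.

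Across the 7 libraries the log2 CPM of Grik1 ran most closely with Grik4 (Pearson r = 0.84) and Grid1 (r = 0.79), and that of Grik2 went against Grik5 (r = -0.62). These values are descriptions over 7 libraries that share the group difference, with no test. Among 7125 genes with a mean of at least 20 CPM, those most like Grik1 over the 7 libraries were the neuronal glutamate transporter gene Slc1a1 (r = 0.97), Xylt1, which starts proteoglycan sugar chains (r = 0.97), and the fatty acid desaturase gene Scd2 (r = 0.96). Of these, Xylt1 fell to 47.4 ± 9.30 CPM in CRS (SD, n = 4), against 112 ± 24.9 CPM in noCRS (SD, n = 3; edgeR adjusted p = 0.034). Grik4 was most like Lman2, a cargo receptor of the secretory pathway (r = 0.99), Laptm4a, a lysosomal membrane protein gene (r = 0.99), and Plbd2 (r = 0.99). Grid1 was most like the proton-activated chloride channel gene Pacc1 (r = 0.99), the aconitase gene Aco1 (r = 0.96) and Cttnbp2nl (r = 0.95). Grik2 was most like Saysd1 (r = 0.98), Camkmt (r = 0.97) and the splicing factor gene Rbm17 (r = 0.96). Grik3 was most like Zcchc8 (r = 0.99), Itgb3bp (r = 0.98) and Vipr2 (r = 0.98), and Grik5 like the catenin gene Ctnnd2 (r = 0.95), Cox19 (r = 0.94) and Ubr7 (r = 0.93). For Grik3, with 0 counts in CRS replicate 2, the rank correlations (Spearman) were lower, at 0.89 for Zcchc8, 0.64 for Itgb3bp and 0.71 for Vipr2. Genes picked as the best 3 of 7125 over 7 libraries have a high r by selection.

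The proteins that work with kainate receptors were followed as a list of 10, of which 9 were in the table and tested. The edgeR fit called 0 of 9, against 2.3% of all tested genes, DESeq2 1, against 9.14%, and limma-voom 0, against 3.58%. An unadjusted edgeR p below 0.05 was found for 1 of 9, against 13.6%. The groups did not overlap in 3 of 9, against 16.9% of all tested genes. The median log2 fold change of the list was 0.08. Neto1 and Neto2, whose proteins are auxiliary subunits that slow kainate receptor currents, were named after their values were seen. Neto1 had 24.2 ± 13.3 CPM in CRS (SD, n = 4) and 26.2 ± 15.1 CPM in noCRS (SD, n = 3), and Neto2 had 29.3 ± 9.03 CPM in CRS and 27.7 ± 8.43 CPM in noCRS. Klhl24, whose protein binds GluK2, had 70.5, 78.1, 88.6 and 108 CPM in CRS, against 57.0, 51.1 and 50.2 CPM in noCRS. The groups were apart for Klhl24, with a log2 fold change of 0.71 ± 0.21 (SE; edgeR adjusted p = 0.155), and this was the DESeq2 call (adjusted p = 0.00888). C1ql2, a secreted protein gene that recruits kainate receptors at hippocampal mossy fibre synapses, had 2.60, 0.156, 0 and 3.70 CPM in CRS, against 16.2, 11.5 and 19.4 CPM in noCRS. Its groups were apart, with an edgeR adjusted p of 0.385 and a mean of 0.918 CPM in CRS without CRS replicate 4, against 1.61 CPM over all 4. C1ql3, its close relative, had 50.7 ± 3.04 CPM in CRS and 39.4 ± 10.3 CPM in noCRS (edgeR adjusted p = 0.641), and 64.2% of its exon bases are shared with genes on the other strand. Elfn1, a postsynaptic adhesion protein gene that recruits presynaptic kainate receptors, had 2.75 ± 2.64 CPM in CRS and 8.06 ± 1.23 CPM in noCRS (edgeR adjusted p = 0.65).

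Of 10 genes listed as ligands or binding proteins of delta receptors, 8 were tested, and 1, C1ql1, fell in the edgeR fit. Whether the C1ql1 protein binds a delta receptor was not tested. That fit called 0.23% of all tested genes as lower in CRS and 2.3% in both directions. Cbln3 had 0 counts in all libraries, and Cbln1 did not pass the filter. C1ql1, a secreted protein gene of the C1q family that is also in the list of oligodendrocyte precursor markers, had 72.2, 35.7, 60.8 and 48.5 CPM in CRS, against 165, 236 and 211 CPM in noCRS. Its log2 fold change was -1.91 ± 0.26 (SE; edgeR adjusted p = 0.0103), a call lost without noCRS replicate 2 (edgeR adjusted p = 0.052). Cbln2, a cerebellin gene whose protein binds GluD1, had 19.5, 10.8, 45.6 and 40.6 CPM in CRS, against 1.52, 0 and 0.832 CPM in noCRS. The Cbln2 groups were far apart. Its level averaged 29.1 ± 16.6 CPM in CRS (SD, n = 4) and 0.784 ± 0.761 CPM in noCRS (SD, n = 3), where leaving out replicate 1 gave 0.416 CPM. However, its log2 fold change of 5.198 ± 1.31 (SE) was short of the threshold (edgeR adjusted p = 0.0965), while DESeq2 gave an adjusted p of 5.31e-05. Gopc, a trafficking adaptor gene, had 56.7 ± 23.4 CPM in CRS (SD, n = 4) and 26.9 ± 15.4 CPM in noCRS (SD, n = 3; edgeR adjusted p = 0.396). The estimates for Grid1 and for its ligand gene Cbln2 thus had opposite signs.

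Transcripts of some kainate subunits are edited by adenosine deaminases, whose genes were followed as a list of 3. The edgeR, DESeq2 and limma-voom fits each called 0 of 3, against 2.3%, 9.14% and 3.58% of the genes they tested. An unadjusted edgeR p below 0.05 was found for 1 of 3, against 13.6%. Adarb1, the main editing enzyme of glutamate receptor messages, had 9.78, 3.37, 4.09 and 3.47 CPM in CRS, against 0, 12.9 and 0 CPM in noCRS (edgeR adjusted p = 0.983). Adar had 14.4 ± 10.9 CPM in CRS and 7.68 ± 3.44 CPM in noCRS (edgeR adjusted p = 0.763), and shares 16.8% of its exon bases with a gene on the other strand. Adarb2, a relative without known editing activity that is also in the list of inhibitory neuron markers, had 20.5 ± 9.12 CPM in CRS and 45.5 ± 14.3 CPM in noCRS (edgeR adjusted p = 0.24).

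Among the other 12 ionotropic glutamate receptor genes 1 rose and 0 fell in the edgeR fit, which called 2.3% of all tested genes in both directions. In that list 6 had an unadjusted edgeR p below 0.05, against 13.6% of all tested genes, DESeq2 called 4, against 9.14%, and the genes had a median log2 fold change of -0.01. Grin2b, an NMDA receptor subunit gene, rose by a log2 fold change of 4.17 ± 0.46 (SE; edgeR adjusted p = 0.00492). The estimate for Grin2a was also positive, at 2.55 (edgeR adjusted p = 0.175), and those for Grin2c, at -1.97 (edgeR adjusted p = 0.185), and Grin3a, at -0.84 (edgeR adjusted p = 0.191), were negative. The summed level of the AMPA receptor genes Gria1 to Gria4 was 76.1 ± 7.26 CPM per kilobase in CRS (SD, n = 4) and 56.3 ± 10.3 in noCRS (SD, n = 3), higher in CRS and narrowly apart (69.1 to 85.6 in CRS and 50.3 to 68.2 in noCRS). The same sum for Grik1 to Grik5 was 7.26 ± 1.65 CPM per kilobase in CRS and 14.0 ± 2.93 in noCRS, lower in CRS with no overlap. The AMPA receptor genes did not all differ in 1 direction. Their log2 fold changes were 2.16 for Gria1, 0.45 for Gria2, 0.22 for Gria3 and -0.53 for Gria4 (edgeR adjusted p from 0.23 to 0.831). Of the metabotropic glutamate receptor genes, edgeR, DESeq2 and limma-voom each called 0 of 6 tested, against 2.3%, 9.14% and 3.58% of all genes they tested. An unadjusted edgeR p below 0.05 was found for 0 of 6, against 13.6%. Within that list Grm8 had the smallest p (13.2 ± 5.24 CPM in CRS and 1.48 ± 1.78 CPM in noCRS, or 0.498 CPM without noCRS replicate 1, edgeR adjusted p = 0.394), and Grm4 and Grm7 had edgeR adjusted p of 0.868 and 0.879.

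**Figure D4:**
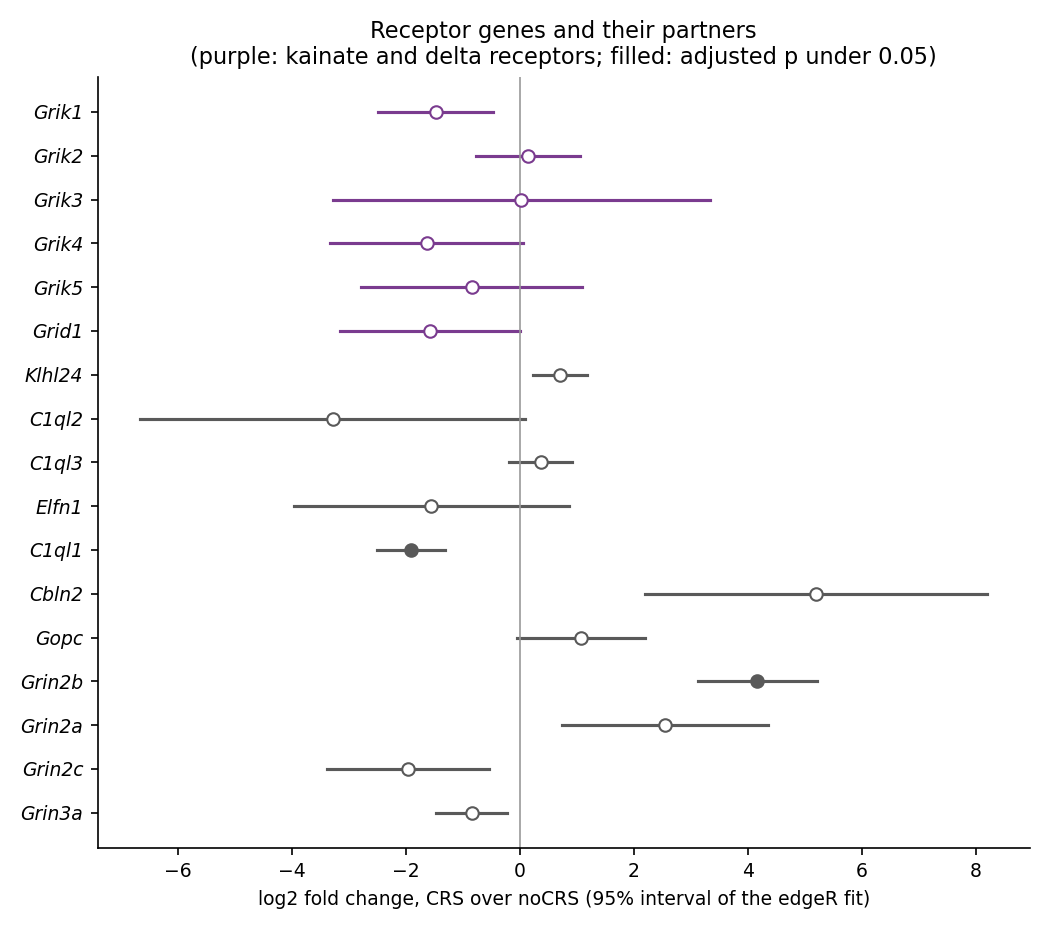
Log2 fold change of CRS over noCRS with its 95% interval from the edgeR fit. Shown are the kainate and delta receptor genes (purple), genes listed as their partners and NMDA receptor subunits (grey). Filled points passed an adjusted p of 0.05, which only C1ql1 (-1.91) and Grin2b (4.17) did among the genes shown.

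The summed CPM of the neuronal and oligodendrocyte precursor markers did not overlap between the groups, while that of the other cell marker lists did. The counts of marker genes that rose or fell are edgeR calls, a fit that called 2.3% of all tested genes in both directions and 0.23% as lower in CRS. Of 12 oligodendrocyte precursor markers 5 fell and 0 rose, and all 12 fold changes were negative, with a median log2 fold change of -1.08. Of 10 astrocyte markers 0 rose and 0 fell, 8 fold changes were negative, and the median was -0.51. In the oligodendrocyte precursor list, Pdgfra had 764 ± 219 CPM in CRS (SD, n = 4) and 911 ± 236 CPM in noCRS (SD, n = 3; edgeR adjusted p = 0.823). Olig1, in the same precursor list, had 208 ± 71.8 CPM in CRS and 493 ± 108 CPM in noCRS (edgeR adjusted p = 0.0703). Of 10 pan-neuronal markers 5 rose and 0 fell, and their summed CPM was 3264 to 4571 in CRS and 518 to 605 in noCRS. Map2, in the pan-neuronal list, had 175 ± 53.7 CPM in CRS and 186 ± 19.0 CPM in noCRS. Of 10 excitatory neuron markers 4 rose and 0 fell (median log2 fold change 4.92), of which Slc17a6 was at 0 in all noCRS libraries. Of 8 tested inhibitory neuron markers 2 rose and 0 fell, with a summed CPM of 231 to 928 in CRS and 103 to 124 in noCRS. Slc32a1 and Lhx6 were at 0 in noCRS but nearly absent from CRS too. In CRS replicates 1 to 4, Slc32a1 had 0, 0, 4 and 4 counts and Lhx6 had 0, 462, 0 and 0. The summed CPM overlapped between the groups for astrocyte markers (6439 to 13287 in CRS and 10897 to 14197 in noCRS) and mature oligodendrocyte markers (28253 to 55783 in CRS and 33944 to 39570 in noCRS). It also overlapped for microglial markers (94.1 to 128 in CRS and 87.3 to 131 in noCRS) and for vascular markers (201 to 701 in CRS and 94.98 to 259 in noCRS). Tmem119 was at 0 in noCRS and had 163, 1, 64 and 11 counts in CRS replicates 1 to 4. Itgam was at 0 in every library but CRS replicate 4, which had 22 counts. The part of these cell markers in the receptor values was not tested.

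**Figure D5:**
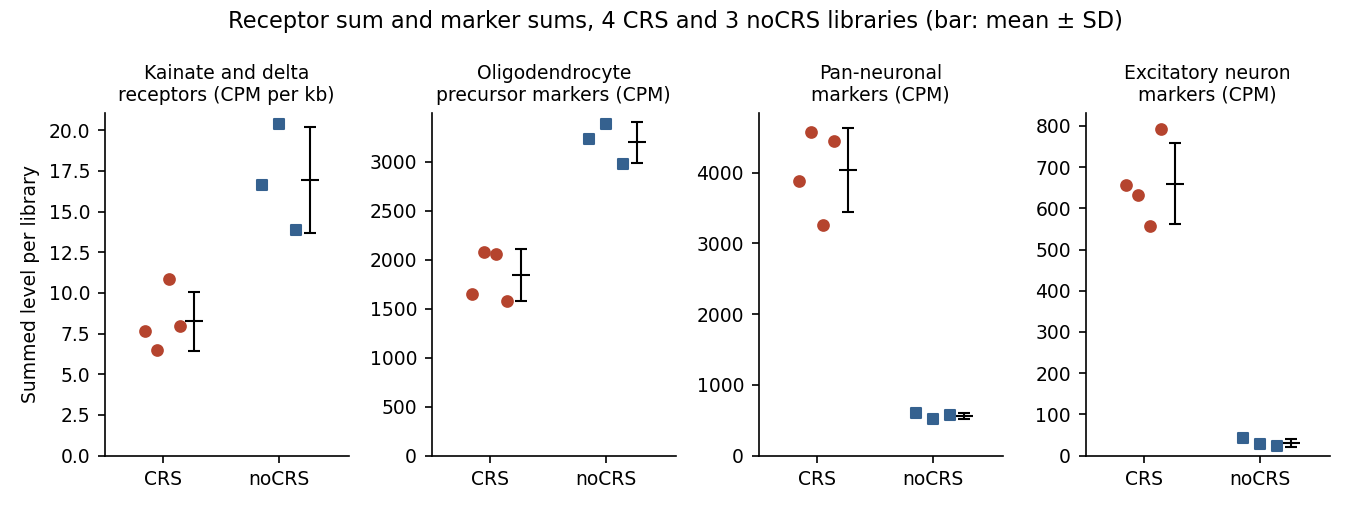
Summed level per library of the 6 receptor genes (CPM per kilobase) and of marker lists of oligodendrocyte precursors, neurons in general and excitatory neurons (CPM), CRS as circles and noCRS as squares, with mean and SD as bars. The receptor sum and the precursor sum (1582 to 2076 in CRS and 2977 to 3388 in noCRS) are lower in CRS, and both neuronal sums are higher.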

How the data were processed

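RNA-seq was measured in 4 CRS and 3 noCRS libraries. The authors deposited raw counts per gene, as whole numbers, with exon coordinates and exon length. The submitters' processing notes name GRCm38 as the build and, without versions, featureCounts, HISAT, HISAT2, DESeq2 and FastQC as tools. The column names end as those of another aligner do, so the aligner was not settled, and how reads with several alignments were counted was not stated there. Per the labels' protocols the library kit was a transposase kit, which does not mark strand.

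The test on these counts was that of edgeR 4.0.16 (R 4.3.3), quasi-likelihood, CRS over noCRS without covariates, with TMM scaling and filterByExpr defaults, adjusted over all 17833 tested genes at 0.05. Standard errors and 95% intervals were derived from the F statistic. The scripts were tested on simulated data. DESeq2 1.42.0, limma-voom (limma 3.58.1), other scalings and filters, each library left out and a replicate block were alternatives. Log2 CPM used a prior count of 2. A floor of 3 counts covers counting error only, since amplified reads are not independent molecules. No libraries were duplicates (chi-square per gene at least 93.6). Genes sharing exon bases with others are uncertain to that extent.

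Members, lists and tests were chosen with earlier results of these data known. From each related list, up to 4 genes of smallest p and any called gene were named, and for likeness 3 genes per member, leaving out predicted models. From each cell marker list up to 3 of highest mean CPM could be named. Slc17a7, Camk2a, the single AMPA receptor genes, Neto1, Neto2 and marker genes at 0 were named after their values were seen. One listed symbol, Klhl17, was not analysed here, and some genes that the rule names are not reported here. Coding sequences and gene spans are from GENCODE M21 (GRCm38), whose spans matched the table for all 6 genes.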

Additional observations from a re-analysis of the deposited data

Results flagged for a closer look

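Adarb1, the editing enzyme gene, had 9.78 CPM in CRS replicate 1, far above the other CRS libraries (3.37 to 4.09 CPM). Such a gap appears by chance in about 1 in 20 groups. No kainate or delta receptor gene had a CRS library this far from the rest, and noCRS, with 3 libraries, was not examined for this.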

How the results depend on the processing

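Grik1, Grik4, Grik5 and Grid1 kept negative fold changes under all 16 alternatives, and of all 6 receptor genes only Grik1 was called, only by DESeq2 (log2 fold change -1.51, adjusted p = 0.0122, 1 gene in place of 0). The log2 fold change of Grik2 turned to -0.021 with library totals alone, and was -0.16 to 0.48 with a library left out. That of Grik3 turned to -0.0094 with DESeq2, -0.11 with limma-voom, -0.019 with RLE size factors, -0.048 with upper-quartile factors, -0.11 with library totals alone and -0.013 with protein-coding genes alone, and was -0.51 to 0.62 with a library left out. Scaling by library totals shifted the median fold change of all genes by -0.16. The count of called genes over all was 410, against 1631 by DESeq2, 639 by limma-voom, 714 at an adjusted p of 0.1, 96 at 0.01 and 142 to 352 with a library left out. Higher genes made up 90% of calls, against 74.9% with DESeq2 and 79.5% with library totals. Adar turned to -0.018 with limma-voom, and Adarb1 ranged from -0.32 to 10.5 with a library left out. The cause of these changes was not tested.

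No sign of pairing by replicate number was seen: the deviations of same-numbered libraries had correlations of 0.015, -0.003 and 0.023. Such values cannot show whether samples were collected or processed in pairs. With a replicate block 12 genes were called and 0 of the 6, and the log2 fold change of Grik3 was -1.33. The C1ql1 and Grin2b calls were lost (edgeR adjusted p = 0.184 and 0.104), with log2 fold changes of -1.90 for C1ql1 and 4.03 for Grin2b, close to the -1.91 and 4.17 without the block.

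On a TPM-like scale the mean levels in CRS were 6.27 for Grik1, 5.11 for Grik2, 2.22 for Grik3, 1.91 for Grik4, 2.55 for Grik5 and 2.43 for Grid1. Those in noCRS were 19.0 for Grik1, 5.06 for Grik2, 2.30 for Grik3, 6.35 for Grik4, 4.98 for Grik5 and 7.93 for Grid1. With gene length ignored, the Grik2 share was 45.4% in CRS and 23.5% in noCRS, the Grik4 share was 6.85% in CRS and 13.6% in noCRS, and the Grik1 shares no longer overlapped. Wide intervals limit what these 7 libraries show, above all for Grik3 and Grik5.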
